A study of Arabidopsis thaliana with 27 samples.

Results

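In seedlings of the Arabidopsis thaliana mutant hy5-215, 213 nuclear loci carried reads although they were almost unread in every other line of the series. They were selected by their counts. A locus had to hold at most 24 reads summed over the 24 libraries that are not hy5-215, and at least 1 CPM (counts scaled to a library of 1e6 gene reads) in each of the 3 hy5-215 libraries, and a silent locus at that level is called read in hy5-215 below. The 213 loci make up 0.657% of the 32399 nuclear loci listed. Of those, 9858 held at most 24 reads outside hy5-215 and are called silent loci here, so that 2.16% of the silent loci met the level in hy5-215. The other 9645 silent loci included 7665 with 0 reads in all 3 hy5-215 libraries. Because the rule used the reads of hy5-215 and of all other lines, the contrast between them is a description for these loci, and no test of it is given.

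Total RNA of whole seedlings was sequenced after a week on MS medium at 22 °C, with 8 h of light and 16 h of darkness a day, in 27 libraries, 3 for each of 9 groups. hy5-215 was sampled at ZT0, that is, when the lights came on (zeitgeber time, ZT, is given in hours after that). The double mutant vil1-1cop1-4, cop1-4, vil1-1 and the wild type Col-0 were each sampled at ZT0 and at ZT6. HY5 is a bZIP transcription factor that promotes light-grown development, and hy5-215 is one mutant allele of it. COP1 is the E3 ubiquitin ligase that marks HY5 for degradation in the dark, and VIL1 is a PHD-finger partner of Polycomb repressive complex 2. The labels name 1 hy5 line, no second allele and no ZT6 sample of it, and they give no batch, so that the mutation, the genetic background of the seed stock and any difference in handling of these 3 libraries cannot be told apart. Nothing in the labels says that replicates came from separate cultures.

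Much of the silent part of the Arabidopsis genome consists of transposons and their remnants, which are densest around the centromeres. They are kept unread by DNA methylation, which MET1 maintains at CG sites and CMT3 and CMT2 at other sites, with the remodeller DDM1 giving these enzymes access to packed chromatin. Methylation of histone H3 by SUVH enzymes acts in the same pathways, as do small RNAs made from transcripts of RNA polymerase IV, which guide methylation to sites transcribed by RNA polymerase V. The reference gene table has no class for transposons and lists most of their remnants as pseudogenes.

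Many of the loci are copies of one another. Compared by BLASTN, 123 of the 211 loci with a reference sequence fell into 18 families, where 2 loci were joined at 80% identity or more over at least 50% of the shorter one. The families held 85.5% of the CPM of all 213 loci, and the 3 largest held 36, 19 and 17 loci. To show how alike copies that were read and copies that were not can be, 60 bases of the largest family follow, from the gene strand of RefSeq TAIR10.1, 5′ to 3′. They start at base 2889 of AT1G42050, the most read member, where the copies shown differ from it least. AT3G42716, AT4G07942 and AT5G32404 were the most read members on their chromosomes, and AT2G10180 and AT5G33125, each the longest of the nearly unread copies on its chromosome that could be aligned, had 0 reads in hy5-215. Capitals mark bases that differ from AT1G42050.
AT1G42050: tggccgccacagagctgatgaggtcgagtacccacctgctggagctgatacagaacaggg
AT3G42716: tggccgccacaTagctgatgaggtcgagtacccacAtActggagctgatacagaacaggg
AT4G07942: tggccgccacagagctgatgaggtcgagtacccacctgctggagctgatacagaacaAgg
AT5G32404: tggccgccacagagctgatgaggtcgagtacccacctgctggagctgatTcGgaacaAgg
AT2G10180: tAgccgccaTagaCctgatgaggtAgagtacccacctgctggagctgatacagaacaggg
AT5G33125: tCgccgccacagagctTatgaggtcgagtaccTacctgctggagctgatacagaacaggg

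In these 60 bases the copies read in hy5-215 differed from AT1G42050 at 1 to 3 positions, and the unread copies AT2G10180 and AT5G33125 at 4 and 3. The second family is not shown, because no 60 bases could be aligned in the same way across its copies. In the third family, led by AT1G44060, the unread copies shown were closer to AT1G44060 than the read ones. Shown in the same way from base 1860 of AT1G44060, its read copies AT3G42720, AT4G03910 and AT5G28923 differed at 11, 7 and 7 positions, while AT2G06800 and AT5G32950, with 0 reads in hy5-215, differed at 3 and 2.
AT1G44060: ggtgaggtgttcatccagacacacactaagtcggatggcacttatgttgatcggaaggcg
AT3G42720: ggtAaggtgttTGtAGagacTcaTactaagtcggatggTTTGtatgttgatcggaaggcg
AT4G03910: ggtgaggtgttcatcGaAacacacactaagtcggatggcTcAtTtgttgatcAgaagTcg
AT5G28923: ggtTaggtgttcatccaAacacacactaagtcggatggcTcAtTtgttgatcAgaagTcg
AT2G06800: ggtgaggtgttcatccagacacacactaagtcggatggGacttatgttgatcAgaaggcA
AT5G32950: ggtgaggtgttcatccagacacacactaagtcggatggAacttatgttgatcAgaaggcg

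In units of 1e6, libraries held 20.4 to 25.6 gene reads in hy5-215 and 19.7 to 33.6 in the other 24. The 213 loci together held 316232, 220255 and 265429 reads in hy5-215 replicates 1, 2 and 3, which is 12338, 10806 and 12248 CPM or 1.08 to 1.23% of all gene reads. In the 24 other libraries they held 3 to 35 reads each, 455 in all, and their summed level lay between 0.144 and 1.30 CPM. Col-0 at ZT0 had 65 reads in its 3 libraries, or 0.996 CPM with an exact 95% Poisson interval of 0.769 to 1.27 that covers counting error only. The other groups had 34 reads in cop1-4 at ZT6 to 75 in vil1-1 at ZT0. The rule itself holds these counts low, because a locus well read in a mutant of VIL1 or COP1 could not be among the 213. No read at all was found outside hy5-215 for 115 of the loci, and no single other library held more than 7 reads of any of them.

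**Figure D1:**
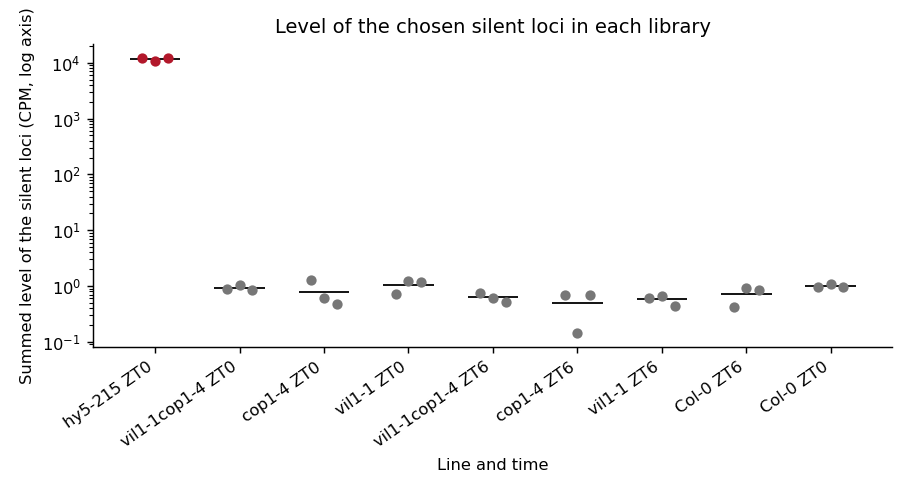
Summed level of the 213 silent loci in every library (points, CPM on a log axis) by line and time, with the group mean as a bar. The 3 hy5-215 libraries lie between 10806 and 12338 CPM, and the 24 other libraries between 0.144 and 1.30 CPM.

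The same rule was applied to each of the other 8 groups in turn, with the 24 remaining libraries as the others. It found 0 loci in each of them, although 9456 to 9537 loci held at most 24 reads outside the group. It also found 0 loci in each of vil1-1cop1-4, cop1-4, vil1-1 and Col-0 when both times of a line were pooled. The ceiling was then 21 reads over the 21 other libraries. A locus well read at both times of a line could not pass for a single group of it. Likewise, a locus well read in vil1-1 or cop1-4 and also in vil1-1cop1-4 could not pass, even with times pooled. Only hy5-215 had no second group of its line or mutation, so these counts do not compare the lines on equal terms. The reverse rule found 0 loci that were silent in hy5-215 and read in all other libraries.

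Levels of the 213 loci in hy5-215 spanned 3 orders of magnitude. Their mean over the 3 libraries ran from 1.13 to 1742 CPM with a median of 12.4 CPM, and 114 loci reached 10 CPM, 30 reached 100 CPM and 1 reached 1000 CPM. Per kilobase of exon, which allows levels of different genes to be compared, the median was 9.26 CPM per kb. Over the 15927 genes that had at least 1 CPM in all 27 libraries, the median in hy5-215 was 11.4 CPM per kb. Across the loci, log2 CPM correlated between pairs of hy5-215 libraries with Pearson's r of 0.982 to 0.994, a description over loci that share these libraries.

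The most read locus, AT1G42050, had 1781, 1632 and 1812 CPM in hy5-215 replicates 1, 2 and 3, and 9 reads in the 24 other libraries. It is annotated as a pseudogene with 1 exon of 3209 bases, and it alone supplied 14.8% of the CPM of the 213 loci. All 3 hy5-215 libraries were high, with a spread of 96.6 CPM (SD, n = 3). AT4G07942 of the same family had 593, 557 and 607 CPM, and 0 reads in Col-0 at ZT0. Against a floor of 3 reads over the Col-0 group, its level was at least 12761-fold higher in hy5-215.

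The next loci belonged largely to the family of AT1G44060. AT1G44060 had 419, 386 and 413 CPM in hy5-215, AT4G03910 had 395, 377 and 402 CPM, and AT1G35600 had 350, 318 and 348 CPM. All of them are 1-exon pseudogenes, and each had 3 to 5 reads in the 24 other libraries. The full length of AT4G03910 and of AT1G35600 has a match elsewhere in the genome at 99% identity, so their counts are uncertain. The remaining places among the 12 most read loci were taken by AT4G03860, AT1G39110, AT4G06720, AT4G08091, AT4G08050, AT1G40310 and AT4G06506, whose means lay between 258.6 and 330.1 CPM in hy5-215. Those 12 loci lie on chromosomes 1 and 4, held 46.3% of the CPM of the 213, and 10 of them belong to the 3 largest families.

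By annotation, 177 of the 213 loci (83.1%) are pseudogenes. Pseudogenes make up 36.9% of all silent loci and 12.1% of all nuclear loci. The pseudogenes had a median of 14.9 CPM in hy5-215, and 100 of them had 0 reads in all other libraries. Of the 211 loci in the annotation, 154 have 1 exon, and the median exon length is 2001 bases.

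Annotated protein-coding genes made up 33 of the loci, against 49.8% of all silent loci. Their levels in hy5-215 were 1.29 to 48.01 CPM with a median of 7.21 CPM. Per kilobase of exon, the median was 9.73 CPM per kb for these genes, whose median exon length is 813 bases, and 9.001 CPM per kb for the pseudogenes, at 2205 bases. AT3G25719, which encodes an uncharacterized protein, was the highest, at 43.6, 53.7 and 46.7 CPM in hy5-215. The ovate family gene OFP9 (AT4G04030), annotated as a transcription repressor, had 38.3, 36.1 and 38.3 CPM in hy5-215 and 17 reads in the 24 other libraries. At 99% identity, 99.4% of its length has a match elsewhere in the genome, so its count is uncertain. Some of the others carry the annotation of a sugar transporter (AT4G03950, 22.0 CPM), a DEAD/DEAH-box RNA helicase (AT1G36020, 7.71 CPM), a plant thionin (AT2G15010, 2.11 CPM) or a reverse transcriptase-related protein (AT3G25720, 1.68 CPM).

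SADHU8-1 (AT1G50735), a pseudogene that bears the name of the Sadhu retroelements, was the other locus with a symbol and had 38.8, 37.8 and 35.4 CPM in hy5-215, with 4 reads in the 24 other libraries. The noncoding RNA gene AT4G15242 had 87.3, 83.4 and 93.8 CPM and 1 read elsewhere. AT1G37162 and AT1G38950, which the reference table does not list, had means of 3.58 to 3.65 CPM.

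At the edge of the level threshold, AT1G34600, AT1G36400 and AT3G23085 were just inside with 1.03 CPM in their lowest hy5-215 library, and AT4G08092, AT1G39190 and AT4G06622 just outside with 0.969 CPM. At the edge of the read ceiling, AT3G29633 with 24 reads and AT1G47265 and AT3G14670 with 17 reads were inside. AT1G27565 with 27 reads, AT3G44042 with 30 and AT3G32010 with 31 were outside, and had at least 4.25, 7.46 and 6.82 CPM in each hy5-215 library.

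The loci were spread unevenly over the 5 chromosomes. Chromosome 4 held 92 of them, chromosome 3 held 55, chromosome 1 held 51, chromosome 2 held 10 and chromosome 5 held 5. Chromosome 4 has the fewest silent loci, 1578, and chromosome 1 the most, 2235. Of the silent loci listed for it, 5.83% were read in hy5-215 on chromosome 4, 2.66% on chromosome 3, 2.28% on chromosome 1, 0.546% on chromosome 2 and 0.233% on chromosome 5. Among silent pseudogenes alone, the shares were 11.6, 5.67, 6.31, 1.04 and 0.668% in the same order. Chromosomes 4 and 1 supplied 48.4 and 40.8% of the CPM of the 213 loci.

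Within chromosomes the loci were grouped. Joined wherever at most 250 listed IDs lay between neighbours, 84 loci fell into a stretch from AT4G03156 to AT4G11375, 48 into AT1G34590 to AT1G54430 and 46 into AT3G29633 to AT3G44215. In these stretches 10.1, 5.73 and 5.56% of the silent loci met the rule in hy5-215, so that most silent loci there did not reach 1 CPM in every hy5-215 library. The bin AT4G05000 to AT4G09999 was the densest, with 66 of 613 silent loci. On chromosome 2, the bins AT2G05000 to AT2G09999 and AT2G10000 to AT2G14999 held 378 and 466 silent loci, and 0 of either was among the 213. On chromosome 5, AT5G28923, AT5G32404, AT5G35792, AT5G37385 and AT5G45082 were the members, with a highest mean of 14.9 CPM.

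**Figure D2:**
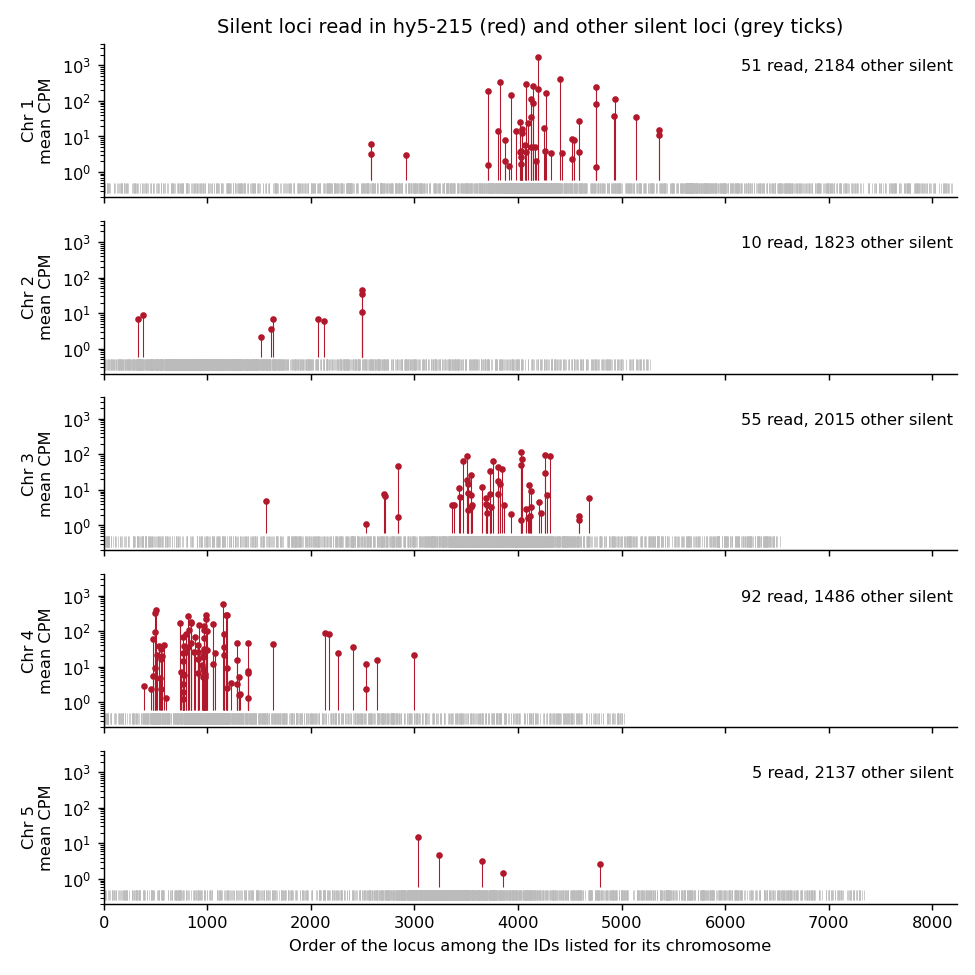
Silent loci in the order of their IDs along each chromosome, with loci read in hy5-215 in red at their mean level (CPM, log axis) and the other silent loci as grey ticks. In chromosome 4, 84 of 92 loci are crowded into 1 stretch, and in chromosome 1, 48 of 51, while chromosomes 2 and 5 carry 10 and 5 among as many grey ticks.

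Copies in the 3 largest families were also split by chromosome. In the 3 largest families, 390 silent copies could be placed by their match to a member. Of 239 copies inside the 3 stretches, 69 (28.9%) were read in hy5-215, with 8345 CPM together. On chromosome 5, 3 of 94 copies (3.19%) were read, with 24.8 CPM together, and on chromosome 2, 0 of 57, with 2.39 CPM together. Of these copies, 39 on chromosome 2 and 65 on chromosome 5 had 0 reads in hy5-215, as had 101 inside the stretches. Over all families, 6 of 85 copies on chromosome 2 and 5 of 143 on chromosome 5 were read, against 107 of 333 inside the stretches. The family of AT2G23490 went the other way, with 3 of 4 copies read on chromosome 2. Families and stretches were both built from the loci that met the rule, so these shares are a description.

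The family of AT1G42050 had 18 of 51 copies read on chromosome 4, 10 of 35 on chromosome 3, 7 of 27 on chromosome 1, 1 of 35 on chromosome 5 and 0 of 21 on chromosome 2. In the family of AT1G42040, the counts were 11 of 43, 3 of 25, 5 of 29, 0 of 51 and 0 of 26 in the same order. AT1G42040 itself had 230, 207 and 231 CPM in hy5-215. The smaller family of AT1G44060 had the highest shares, 6 of 9 on chromosome 1, 5 of 9 on chromosome 4, 4 of 11 on chromosome 3, 2 of 8 on chromosome 5 and 0 of 10 on chromosome 2. On chromosome 2, the members AT2G23480, AT2G23490 and AT2G23500 stand side by side with means of 10.6, 35.2 and 46.0 CPM. AT2G23480 and AT2G23490 belong to different small families, and AT2G23500 to none.

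**Figure D3:**
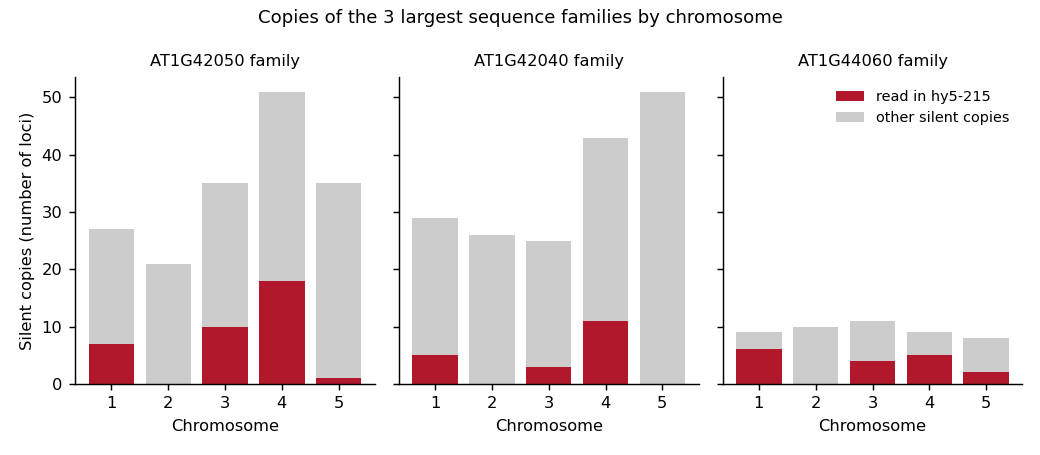
Number of silent copies of the 3 largest families on each chromosome, with copies read in hy5-215 in red and other silent copies in grey. Red is found on chromosomes 1, 3 and 4 in every panel, and chromosome 2 has copies in each family but none in red.

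Copies that did not meet the rule could be close to one that did. The 72 members in these families had a median identity of 93.9% to their nearest other member, and the 318 other silent copies a median of 91.6%. Of the other copies, 62 had at least 95% identity to a member, among them 32 with 0 reads in hy5-215. Near-identical copies also limit the counts. At least 50% of the length of 79 of the 211 loci (at 95% identity) and of 14 (at 99%) had a match elsewhere in the genome, and reads placed at several sites stand in a line of their own in the tables. The counts of such loci are uncertain to that extent. Matches elsewhere were not measured for the other silent copies, whose 0 reads can leave out reads placed at several sites.

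The loci often stood next to each other. With at most 2 other listed IDs between neighbours, 122 of the 213 (57.3%) lay in 47 runs. The longest run had 9 loci, AT4G06670 to AT4G06692. In it AT4G06686 was the highest, at 148.0, 129.2 and 133.4 CPM in hy5-215, followed by AT4G06682 at 66.5, 53.6 and 66.2 CPM. AT4G06684, AT4G06688, AT4G06680, AT4G06678, AT4G06670, AT4G06692 and AT4G06672 had means of 30.9, 27.8, 19.8, 18.3, 8.33, 5.36 and 5.25 CPM, with 3 reads or fewer each in the 24 other libraries.

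A gene that is not silent lay within this run. The protein-coding AT4G06676 had 13.4, 11.2 and 12.1 TMM-scaled CPM in hy5-215, against 13.2, 13.4 and 14.6 in Col-0 at ZT0, and the groups overlapped. Its log2 fold change was -0.16 and it was not called. The pseudogene AT4G06674 in the same run had 0.245 CPM in hy5-215 and 0 reads elsewhere.

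The second run had 7 loci, from AT4G05587 to AT4G05594. AT4G05591 had 72.6, 66.0 and 72.6 CPM in hy5-215, AT4G05587 had 26.2, 19.4 and 26.4 CPM, and AT4G05592, AT4G05588, AT4G05593, AT4G05589 and AT4G05594 had means of 14.4, 6.32, 3.26, 1.94 and 1.25 CPM. Between them, the protein-coding AT4G05590 had 4.14, 4.06 and 3.24 TMM-scaled CPM in hy5-215, against 5.04, 3.70 and 4.32 in Col-0 at ZT0, so that the groups overlapped, and was not called. The third run, AT3G30744 to AT3G30751, interleaved 4 read and 4 other loci. AT3G30749 had 33.6, 15.6 and 32.0 CPM, AT3G30744 had 9.60, 4.46 and 7.89 CPM, AT3G30751 had 4.60, 3.04 and 3.60 CPM and AT3G30746 had 3.75, 1.37 and 4.61 CPM in hy5-215. The pseudogenes AT3G30745 and AT3G30747 between them had 0 reads in all libraries of hy5-215 and Col-0 at ZT0, and AT3G30748 and AT3G30750 had means of 0.288 and 0.0154 CPM in hy5-215.

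Taking the nearest ID on each side that is not one of the 213 gave 298 flanking loci, of which 223 were themselves silent outside hy5-215. Of those 223, 118 had 0 reads in hy5-215, a smaller share than the 7665 of all 9645 silent loci that are not among the 213. In the edgeR quasi-likelihood test of hy5-215 against Col-0 at ZT0, 8369 of 21448 genes (39.0%) passed an adjusted p of 0.05, 20.0% higher and 19.0% lower in hy5-215. All 213 loci were among the genes tested, and nothing is read from their calls. Without the 213 loci, 19.2% were higher and 19.2% lower. Of the flanking genes, 83 could be tested, but 16 of them passed the filter on low counts only through their hy5-215 reads, so that their direction was fixed by the filter. The other 67 passed it on the 24 other libraries alone. Of these, 11 (16.4%) were higher and 25 (37.3%) lower in hy5-215, with a median log2 fold change of -0.16. Among all 21071 tested genes that passed in that way, 18.8% were higher and 19.4% lower. At least 2-fold higher were 2 of the 67. This split was made after the values were seen.

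Replicates of hy5-215 did not stand alike on chromosome 3. The loci there summed to 1345, 769 and 1240 CPM in replicates 1, 2 and 3, with exact 95% Poisson intervals of 1331 to 1359, 757 to 781 and 1225 to 1255 CPM. On chromosome 4 they summed to 5840, 5417 and 5870 CPM, and on chromosome 1 to 4985, 4477 and 4971 CPM. Replicate 2 thus had 0.595 of the mean of the other 2 on chromosome 3, against 0.925 on chromosome 4 and 0.899 on chromosome 1.

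The gap was carried by the stretch AT3G29633 to AT3G44215. There, 37 of 46 loci had less than 0.7 of the mean of replicates 1 and 3 in replicate 2, with a median ratio of 0.547, while replicates 1 and 3 differed by a median ratio of 1.12. Of the 167 loci elsewhere, 24 were below 0.7, with a median of 0.902. Among loci of at least 10 CPM, whose counting error is smaller, 17 of 20 in the stretch and 3 of 94 elsewhere were below 0.7. The 65 other genes of the stretch that could be compared had a median ratio of 0.991, and all other genes of the genome a median of 0.990 with 1.199% below 0.7.

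AT3G44215 shows the pattern, with 104.9 CPM in replicate 1, 55.7 in replicate 2 and 113.1 in replicate 3 of hy5-215. AT3G32240 had the lowest ratio among loci of at least 10 CPM there, at 0.440. Outside the stretch, AT3G25719 of the same chromosome had its highest level in replicate 2. The chromosome 2 loci AT2G15010, AT2G15815, AT2G16000, AT2G19850 and AT2G20460, consecutive among the 10 there, all had ratios below 0.7, at 0.387 to 0.657 and with means below 10 CPM. Single loci elsewhere with low ratios were AT4G07586 at 0.494 and AT1G38450 at 0.420, both named because of these values.

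**Figure D4:**
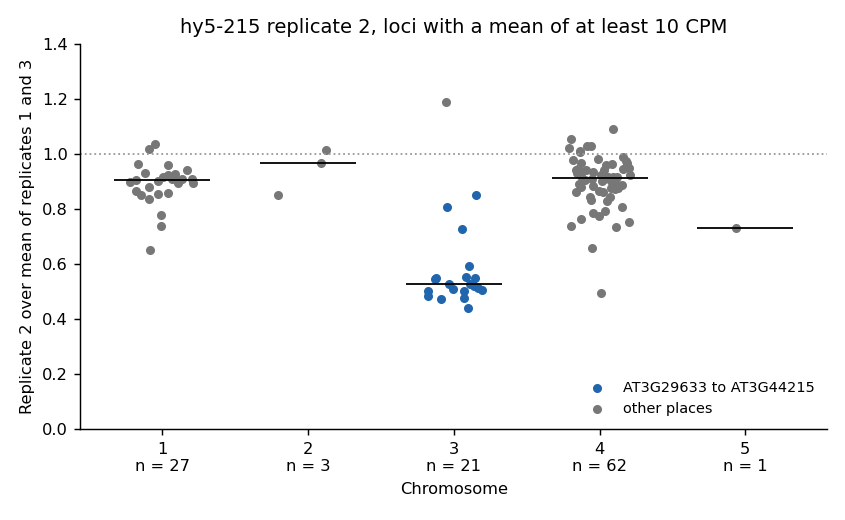
Level in hy5-215 replicate 2 over the mean of replicates 1 and 3 for the 114 loci of at least 10 CPM, by chromosome, with the median as a bar and a dotted line at equal levels. Most points of the stretch AT3G29633 to AT3G44215 (blue) lie near 0.5, while the median is 0.904 on chromosome 1 and 0.913 on chromosome 4.

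At the looser end, 254 silent loci reached 1 CPM in at least 1 hy5-215 library. Beside the 213, 10 did so in replicates 1 and 3 but not 2, 3 in replicates 1 and 2, and 1 in replicates 2 and 3. Another 17 did so in replicate 1 alone, 2 in replicate 2 alone and 8 in replicate 3 alone.

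Genes of silencing and chromatin were compared between hy5-215 and Col-0 at ZT0. Some of them, such as the DNA demethylases, act against silencing, and the last list holds loci that are themselves kept silent. HY5 itself had 14.6, 14.4 and 14.5 TMM-scaled CPM in hy5-215, against 18.8, 19.8 and 17.9 in Col-0, with no overlap (log2 fold change -0.37, SE 0.09, edgeR adjusted p = 0.000847). The labels do not say whether the allele removes RNA, so this level does not check the identity of the line. COP1 was lower as well, by a log2 fold change of -0.26, and VIL1 was not called, at -0.06. Of 67 tested genes in 6 lists of silencing and chromatin genes, 13 were higher and 9 lower in hy5-215, against 20.0 and 19.0% of all genes, or 19.2% each without the 213 loci. Their median log2 fold change was 0.07, and none of the listed genes is among the 213 loci.

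MET1, the CG methyltransferase, had 31.7, 27.7 and 31.3 TMM-scaled CPM in hy5-215, against 31.3, 25.6 and 27.5 in Col-0, and DDM1, the remodeller, had 7.48, 6.02 and 7.51 against 7.62, 6.33 and 6.44. The groups overlapped for both and neither was called (edgeR adjusted p = 0.300 for MET1 and 0.820 for DDM1), which does not show that they were equal. Both were named because of their role and not by the rule for named genes. In the list of DNA methylation and heterochromatin genes, 4 of 22 (18.2%) were higher and 2 (9.09%) lower, against 20.0 and 19.0% of all genes. The non-CG methyltransferase CMT2 averaged 39.3 ± 5.24 TMM-scaled CPM in hy5-215 and 28.7 ± 0.716 in Col-0 (SD, n = 3 each). MOM1, which silences largely without changing DNA methylation, rose by a log2 fold change of 0.31, the chromatin assembly subunit FAS1 by 0.38 and CMT3 by 0.24. IBM1, a histone H3 lysine demethylase that protects genes from silencing, averaged 16.4 ± 1.95 TMM-scaled CPM in hy5-215 and 23.1 ± 1.01 in Col-0. The methyltransferase DRM2 had a log2 fold change of -0.30. CMT3 lost its call without hy5-215 replicate 1, at 0.16, and without Col-0 replicate 2 or 3, at 0.22 and 0.24.

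Among genes of RNA-directed DNA methylation, 4 of 20 (20%) were higher and 2 (10%) lower in hy5-215, against 20.0 and 19.0% of all genes. CLSY3, which recruits RNA polymerase IV, had 2.99, 2.85 and 3.37 TMM-scaled CPM in hy5-215, against 1.01, 0.990 and 1.15 in Col-0. The groups did not overlap (log2 fold change 1.54, SE 0.27, edgeR adjusted p = 1.18e-05). The small RNA binding proteins AGO4 and AGO6 rose by log2 fold changes of 0.31 and 0.63 and SUVH9 by 0.25, while SUVH2, a SUVH protein that recruits RNA polymerase V, and the small RNA maker DCL3 both had -0.42. SUVH2 lost its call without Col-0 replicate 1 (-0.29) and DCL3 without hy5-215 replicate 2 (-0.32). AGO6, with 148 reads in hy5-215 and 101 in Col-0, lost its call without hy5-215 replicate 1 or 3 (0.53 and 0.57), without Col-0 replicate 1 (0.46), and with those groups alone in the fit (0.62). Of 4 DNA demethylases, DML3 and ROS1 (50%) were lower, at -1.29 and -0.38, and DME (25%) higher, at 0.20. In post-transcriptional silencing, RDR6, AGO2 and AGO1 (3 of 6, or 50%) were higher, at 0.23, 0.31 and 0.13. With so few genes, these shares carry little weight beside those of all genes. ROS1 lost its call without hy5-215 replicate 2 or 3 or Col-0 replicate 3 (-0.31 to -0.35), DME without hy5-215 replicate 1 or Col-0 replicate 3 (0.18 and 0.17) and AGO2 without Col-0 replicate 2 (0.23). AGO1 lost it without hy5-215 replicate 2 or 3, without Col-0 replicate 2 or 3 and without the filter on low counts (0.12 to 0.14).

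Of 12 tested Polycomb and VIN3-like genes, 3 (25%) were lower and 0 higher, against 19.0 and 20.0% of all genes. They were the histone methyltransferase CLF, the VIN3-like gene VEL1 and the histone demethylase ELF6, with log2 fold changes of -0.46, -0.29 and -0.20. ELF6 lost its call without hy5-215 replicate 2 (-0.17) or Col-0 replicate 1 (-0.18). With hy5-215 and Col-0 at ZT0 alone in the fit, 3 were lower and 2 higher. The added ones were the histone methyltransferase SWN and EMF1, with log2 fold changes of 0.14 and 0.15 (edgeR adjusted p = 0.0384 and 0.0441). In 6 loci known to be kept silent by DNA methylation, 3 could be tested and QQS was the one called. The ID of QQS (AT3G30720) falls in the chromosome 3 stretch. It had 11.3, 6.53 and 9.50 TMM-scaled CPM in hy5-215, against 0.448, 0.215 and 0.484 in Col-0 at ZT0 (log2 fold change 4.54, SE 0.26, edgeR adjusted p = 3.38e-15). QQS averaged 32.8 ± 1.45 TMM-scaled CPM in vil1-1 and 28.2 ± 1.87 in vil1-1cop1-4 at ZT0 (SD, n = 3 each), and so is not one of the 213. FWA had 0.324, 0.233 and 0.302 TMM-scaled CPM in hy5-215, against 0.224, 0.0861 and 0.149 in Col-0. With 21 and 12 reads, its log2 fold change was 0.87 (SE 0.62), and it was not called although the groups did not overlap. MEA was not called either, at a log2 fold change of -0.05. SDC had 6 reads in hy5-215 and 12 in Col-0, PHE1 had 13 and 15, and FIS2 had 1 and 0.

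**Figure D5:**
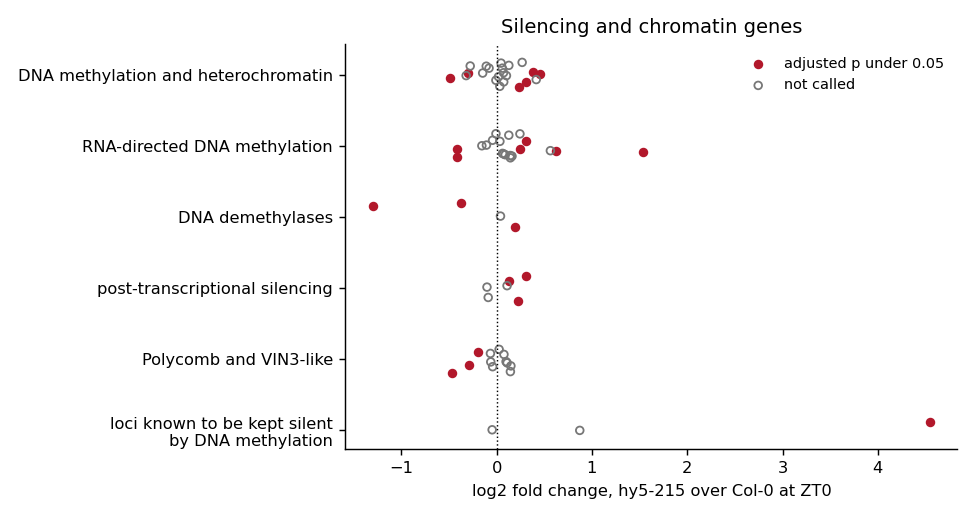
log2 fold change of hy5-215 over Col-0 at ZT0 for each tested gene of the 6 lists, with genes past an adjusted p of 0.05 filled and a dotted line at the median of all genes tested. Most genes lie within 0.5 of that line, with CLSY3 at 1.54, DML3 at -1.29 and QQS at 4.54 farthest out. FWA at 0.87, AGO6 at 0.63 and CLSY4 at 0.56 also lie beyond 0.5.

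Markers of tissues were checked beside these results. The 4 seedling leaf markers summed to 25098 to 26005 CPM in hy5-215 and 24418 to 25196 CPM in Col-0 at ZT0, and the 9 root markers to 127.8 to 136.6 and 129.6 to 132.0 CPM. LHCB1.1 and PORB were higher in hy5-215 and RBCS1A and RCA lower, without overlap, so the leaf sums do not show an equal leaf part. LHCB1.1 had 8727, 9035 and 9339 CPM in hy5-215, against 6488, 6736 and 6389 in Col-0. RBCS1A had 10244, 10390 and 10821 CPM, against 11956, 12082 and 11747. Most of the root sum came from SCR, SHR and CASP1, and single root markers went both ways. CASP1 had 50.2, 52.0 and 43.8 CPM in hy5-215, against 36.8, 43.7 and 38.8 in Col-0. COBL9 had 4.37, 1.37 and 1.80 CPM, against 5.53, 3.90 and 4.61, so the sums do not show an equal root part. The 14 seed and embryo markers summed to 177.1 to 200.2 CPM in hy5-215, with LEC1 at 0, and 14.8 to 24.4 CPM in Col-0, with SESA1 at 0. CRA1 alone held 85.8 to 102.9 CPM of the hy5-215 sum, while LEC2 and FUS3 had at most 0.245 and 0.491 CPM there. CRC had 20.6, 26.8 and 26.6 CPM in hy5-215, against at most 0.131 in Col-0. OLE1, OLE2, EM1, EM6, ABI3, SESA1, SESA3 and SESA4 also lay above Col-0 without overlap, SESA1 and SESA4 at 0.585 CPM or less. For SESA2, LEC1, LEC2 and FUS3 the groups overlapped. The part of the seed and embryo markers in the reads of the 213 loci was not tested. Pollen, in which some silent loci are known to be read, has markers that summed to 72.5 to 78.1 CPM in hy5-215 and 89.2 to 91.6 CPM in Col-0, with VGD1, VGDH1, HTR10, DUO1 and GEX2 (5 of 8) at 0 in both. TUA1 alone held 68.5 to 73.0 CPM in hy5-215 and 84.2 to 86.1 CPM in Col-0, so the pollen sum is largely that gene. In whole seedlings, fewer cells that read a locus and less RNA per cell cannot be told apart.

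Reads that fell in no gene were a larger share in hy5-215 than in any of the 24 other libraries, while reads placed at several sites overlapped with them. Reads outside genes were 2.16 to 2.89% of all reads in hy5-215, against 0.979 to 1.12% in Col-0 at ZT0 and 0.586 to 1.12% in the 24 other libraries. Reads placed at several sites were 4.32 to 5.42% in hy5-215, against 3.18 to 3.54% in Col-0 at ZT0, and up to 4.35% in the 24 other libraries. Their part in the reads of the 213 loci was not tested.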

How the data were processed

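The 27 libraries were analysed from deposited tables of whole-number counts per gene, 1 table a library, left unscaled by the authors. The submitters' processing notes list STAR, FastQC and edgeR, and TAIR10 as the genome. Versions and the strand setting of the counting are not given in the sources used here, so sense and antisense reads of a locus cannot be told apart. The 5 lines that name no gene stayed out of library sizes. Gene reads per library were 19.7 to 33.6 in units of 1e6. Replicate pairs of each group differed by more than sampling noise (chi-square per degree of freedom 2.29 to 7.93).

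CPM of the 213 loci is the count over all gene reads of the library. Names, gene types, exon lengths and sequences came from RefSeq TAIR10.1; because that release is not the one the submitters name, no coordinates are printed. Families were built with BLASTN 2.17.0+. The contrast of hy5-215 with Col-0 at ZT0 used edgeR 4.0.16 in R 4.3.3 (filterByExpr, TMM, robust quasi-likelihood fit with 1 coefficient for each of 9 groups, 18 residual degrees of freedom, Benjamini-Hochberg at 0.05). DESeq2 1.42.0 was an alternative.

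The loci, gene lists and tests were chosen with earlier results of these data known. The text names HY5, COP1 and VIL1, the 12 most read loci, the loci of the 3 longest runs with the genes between them, loci with a symbol, 3 loci on each side of each threshold, and up to 4 called genes per list and direction with the smallest p. Other named genes were chosen after their values were seen, or for their role. Of 3 runs of 4 loci tied for the third place, the first in chromosome order was taken.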

Additional observations from a re-analysis of the deposited data

Results flagged for a closer look

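Reads that the comparisons do not use carried a signal above the level of the Col-0 libraries. Reads outside annotated genes were 2.89, 2.16 and 2.43% of all reads in hy5-215 replicates 1, 2 and 3, against 0.979 to 1.12% in Col-0 at ZT0. Reads placed at several sites were 5.42, 4.32 and 4.62% in hy5-215, against 3.18 to 3.54% in Col-0 at ZT0. The highest of the 24 other libraries, vil1-1 at ZT6 replicate 2, had 4.35%, above hy5-215 replicate 2, so that this measure overlaps with lines in which the 213 loci are almost unread. The tables do not tell where these reads lie, and their origin was not tested.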

How the results depend on the processing

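The number of loci, 213 as reported, was 250 at 0.5 CPM, 182 at 2 CPM, 204 at a ceiling of 12 reads, 224 at 48 reads, 209 on TMM-scaled sizes and 214 to 223 when 1 hy5-215 replicate was left out; the highest came without replicate 2, which added 10 loci. Loci in runs numbered 101 to 134 over the other gaps and 122 to 128 leaving 1 replicate out. Loci in families numbered 125 at 70% and 103 at 90% identity, alternatives chosen after seeing the data. Genes called between hy5-215 and Col-0 numbered 8337 with edgeR RLE factors, 8089 with DESeq2 and 7298 to 7552 leaving 1 library out. With the replicate block they numbered 8264, and 22 list genes were called as without it; same-numbered libraries deviated with correlations of -0.05 to 0.00162, so the numbers are not taken to pair them. List genes called numbered 18 to 20 leaving 1 library out. Of 25 named genes, 9 lost their call in at least 1 alternative and 0 changed direction: CMT3, SUVH2, DCL3, AGO6, ROS1, DME, AGO2, AGO1 and ELF6. Loci near 1 CPM are limited by depth.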
